A study of Mus musculus with 2 samples.

Results

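The cells described here are the 593 most contractile Prrx1-lineage cells of 2 single-cell libraries of mouse periosteum, the cell layer that covers bone. They are 370 of 3697 lineage cells at day 3 after a tibial fracture and 223 of 2225 lineage cells without injury, out of 18894 retained barcodes in all. Both libraries came from Prx1Cre;mTmG mice, in which every cell carries a reporter that changes for good from membrane tdTomato to membrane EGFP once Cre has been active, so EGFP marks descent from cells that used the limb promoter Prx1 and not present use of it. There was 1 library for each condition, the labels give no number, age or sex of mice, and all live cells were taken from explant cultures. The growth protocol has them grown to 80% confluence at 33 °C with 20% serum and bFGF at 10 ng/mL, while the design text says that they were not expanded, so the length of culture is not settled. A lineage cell had at least 3 EGFP UMIs, at least 5 EGFP UMIs per 10000 and fewer than 3 UMIs per 10000 of the macrophage genes C1qa, C1qb and C1qc together. The contractile cells are the top 10% of lineage cells of each library by the summed share of Acta2, Tagln, Tpm2, Myl9 and Cnn1, and they were set against the 50% of lineage cells with the lowest sums in the same library, 1848 and 1112 cells, called the lower 50% from here on. These 5 genes chose the cells, so their levels are a description.

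Contractile force in smooth muscle and in activated fibroblasts comes from actin filaments and myosin, and the genes of this apparatus are known as targets of serum response factor (SRF), which binds a DNA element named the CArG box and is switched on when free actin is used up. Acta2 encodes smooth muscle actin, Tagln the actin-binding protein transgelin, Tpm2 a tropomyosin, Myl9 a regulatory light chain of myosin and Cnn1 the actin-binding protein calponin. In injured connective tissue, fibroblasts that gain these genes are called myofibroblasts and are known for wound contraction and matrix deposition, while in bone the same genes are also used as markers of perivascular cells.

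There were 16332 barcodes and 227191961 UMIs (unique molecules counted) in the day-3 library, and 4573 barcodes and 94034112 UMIs in the uninjured library. Filters kept 14463 and 4431 barcodes, and 3 barcode sequences were found in both libraries, none of them in a contractile cell. The UMIs of each group of cells were summed and scaled to CPM, UMIs per 1000000 of the group's total, which was 13188426 UMIs in contractile cells and 59990287 in the lower 50% at day 3, and 6571085 and 26475757 without injury. A ratio is the CPM in contractile cells over that in the lower 50%, with an exact conditional binomial 95% interval in parentheses. With 1 library per condition no test across animals is possible, and each interval covers counting error only. Cells of both sexes were found among the day-3 lineage cells: Xist, a long RNA of the inactive X chromosome and so of female cells, was found in 60.3% of contractile cells and 83.6% of the lower 50% there, against 0.448% and 0.360% in the uninjured library. The share of Malat1-poor barcodes described below moved with this difference. Among contractile cells at day 3, Xist was found in 10.2% of Malat1-poor barcodes and in 75.9% of the others. In the lower 50% at day 3 it was found in 31.8% and 85.5%. Whether Xist was missing from Malat1-poor barcodes through sex, depth or lost RNA was not tested, so its share does not give the share of female cells. Named genes whose day-3 call was lost or turned in male cells, those with a Y-linked UMI and no Xist, are given with both values.

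The score was 73.1 UMIs per 10000 in the median contractile cell at day 3, with the last cell inside at 53.69 and the first outside at 53.60, against 5.12 in the median cell of the lower 50%. In the uninjured library it was 108.8 in the median contractile cell, with 83.11 just inside and 82.81 just outside, against 7.998 in the lower 50%. The limits therefore stand at different levels, and 120 day-3 lineage cells (3.25%) would pass the uninjured limit while 481 uninjured cells (21.6%) would pass the day-3 limit. The genes did not contribute alike in the 2 libraries. Acta2 gave 36.4% of the score's UMIs in contractile cells at day 3 and 55.8% in the uninjured library, and Tagln 39.3% and 21.1%.

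Acta2 (ENSMUSG00000035783, GRCm38 chr19:34241090-34255590, minus strand) was at 2835 CPM in contractile cells and 132 CPM in the lower 50% at day 3, and at 6444 and 430.0 CPM without injury. Tagln was at 3062 and 102.1 CPM at day 3 and at 2436 and 159 CPM without injury. Tpm2, the gene of the 5 with the smallest ratio, was at 1146 and 315 CPM at day 3 and at 1224 and 296 CPM without injury. Every contractile cell of both libraries had Acta2 UMIs, from 4.68 to 138 per 10000 at day 3 and from 28.7 to 157 per 10000 without injury. Myl9 was at 701 and 34.9 CPM at day 3 and at 1127 and 88.5 CPM without injury. Cnn1 was at 53.8 and 0.417 CPM at day 3 and at 315 and 7.89 CPM without injury, and 195 of the 370 contractile cells at day 3 and 47 of the 223 without injury had no Cnn1 UMI. Membership depended little on any single gene of the score: leaving out 1 of the 5 kept between 316 and 367 of the 370 cells at day 3 and between 190 and 222 of the 223 without injury.

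**Figure D1:**
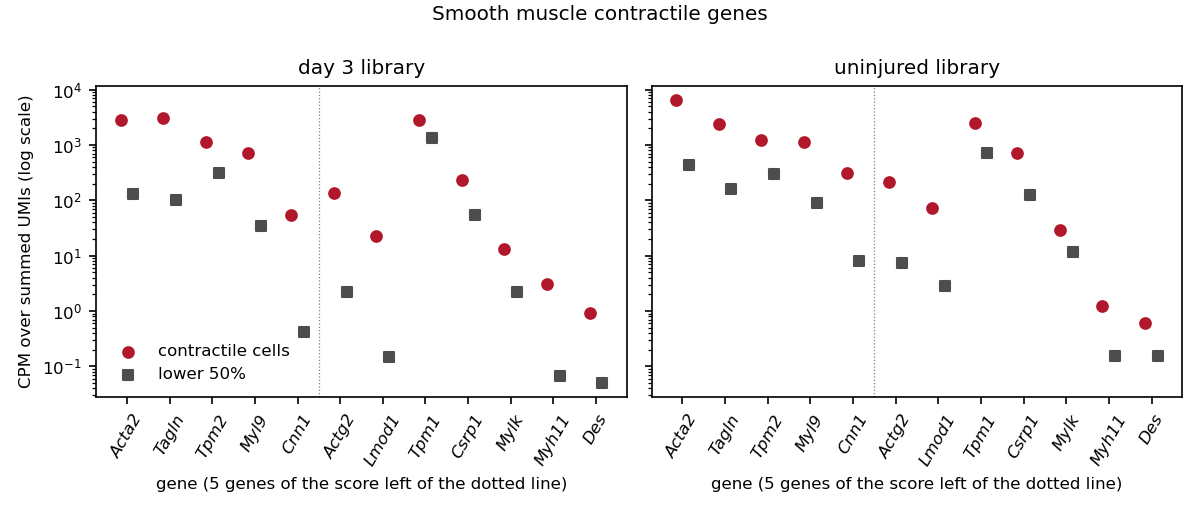
CPM on a log axis of the 5 genes of the score and of 7 other smooth muscle genes in contractile cells (red circles) and the lower 50% (grey squares), day-3 library left and uninjured library right. Actg2 and Lmod1, which were not used to choose the cells, lie apart between the groups, while Myh11 and Des stay near or below 3.03 CPM in both.

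Of the 5 genes, 4 had a RefSeq promoter window, and 1 of these, that of Myl9, held a CArG box by the strict letters defined below. By the same letters the Acta2 window held near matches alone, and those of Cnn1 and Tpm2 held neither. Near matches counted with the box take in 11.3% of all windows. Binding of SRF was not tested, so these letters do not tell whether it binds the near matches of Acta2. The windows of Myl9 and Acta2 are shown because these letters are in them. They are taken from assembly GRCm38.p6, 250 bases before the RefSeq start of transcription, written 5′ to 3′ on the gene's strand. The gene positions come from another annotation, GENCODE, in which both genes start further upstream, so each window runs into its gene's position. Capitals mark a CArG box, a run of 10 bases with CC at one end, GG at the other and only A or T between, or a near match with 1 C or G among the inner bases. Acta2 has near matches 84 and 34 bases before the start, at chr19:34255374-34255623 on the minus strand, and Myl9 has a CArG box 161 bases before the start and a near match at 99, at chr2:156775214-156775463 on the plus strand.
Acta2: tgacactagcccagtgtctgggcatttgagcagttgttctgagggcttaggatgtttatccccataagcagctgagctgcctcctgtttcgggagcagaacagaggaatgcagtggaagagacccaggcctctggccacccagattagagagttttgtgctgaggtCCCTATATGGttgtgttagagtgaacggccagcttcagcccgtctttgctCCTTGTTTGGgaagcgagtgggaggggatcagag
Myl9: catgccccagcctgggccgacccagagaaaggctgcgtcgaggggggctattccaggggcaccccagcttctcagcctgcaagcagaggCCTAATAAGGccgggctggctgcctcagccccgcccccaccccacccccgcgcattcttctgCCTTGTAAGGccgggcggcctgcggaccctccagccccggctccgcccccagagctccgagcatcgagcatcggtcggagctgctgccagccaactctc

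Cells that have lost their nucleus or cytoplasm were looked for with genes per UMI and Malat1, a long RNA held in the nucleus. Genes per UMI had a median of 0.158 in contractile cells and 0.176 in the lower 50% at day 3, and 0.162 and 0.192 without injury, and the contractile cells were deeper, with medians of 34988 and 30457 UMIs at day 3 and 29699 and 21924 without injury. With every cell thinned to 3000 UMIs the medians were 1372 and 1397 genes at day 3 and 1284 and 1261 genes without injury. Malat1 had a median of 56.4 UMIs per 10000 in contractile cells and 60.6 in the lower 50% at day 3, and of 48.9 and 82.9 without injury. The medians hide a separate set of barcodes nearly without Malat1, under 10 per 10000, a limit chosen after the values were seen. They made up 88 of 370 contractile cells (23.8%, exact 95% interval 19.5 to 28.5) and 66 of 1848 cells of the lower 50% (3.57%, 2.77 to 4.52) at day 3, and 39 of 223 (17.5%, 12.7 to 23.1) and 11 of 1112 (0.989%, 0.495 to 1.76) without injury. Among contractile cells the Malat1-poor barcodes had medians of 9235 UMIs and 2.11% mitochondrial UMIs at day 3, against 41707 UMIs and 4.27% in the others. Other RNAs held in the nucleus were low in them too: Neat1 was at 45.1 CPM against 422 CPM in the other contractile cells at day 3, and at 33.4 against 157 CPM without injury. As an alternative, all Malat1-poor lineage cells were removed before choosing the top 10%. The top 10% then held 344 and 214 cells, 282 and 184 of them the same. Acta2 was 21.67-fold and 15.02-fold higher in them than in the lower 50%. That ratio is a description and cannot measure the part of the Malat1-poor barcodes, because Acta2 is in the score that chose the cells again. Having fewer UMIs, these barcodes also weigh less in summed UMIs than their share of cells.

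**Figure D2:**
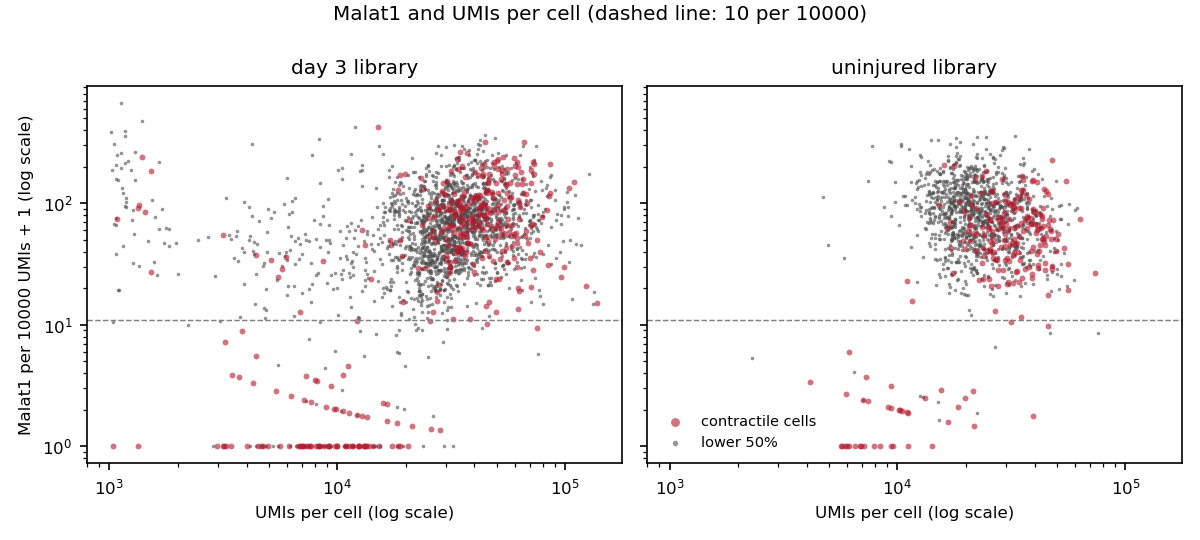
Malat1 per 10000 UMIs, plus 1, against UMIs per cell on log axes, with contractile cells in red and the lower 50% in grey, day-3 library left and uninjured library right. Below the dashed line at 10 per 10000 lie 88 and 39 contractile cells, most with fewer UMIs than the cells above it.

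Beyond the 5 genes, Actg2, Ctgf, Csrp1 and Thbs1 were among the genes higher in contractile cells of both libraries. Of 3045 genes at 50 CPM or more in either group at day 3, 61 (2.00%) were at least 2-fold higher in contractile cells and 51 (1.67%) at least 2-fold lower. Of 2718 such genes in the uninjured library, 93 (3.42%) were higher and 99 (3.64%) lower. Among the 2334 genes measured in both libraries, 34 were higher in both (1.46%), which is 75.6% of the 45 higher at day 3 and 40.5% of the 84 higher without injury. For the lower genes the overlap was 17 (0.728%), which is 73.9% of 23 and 29.3% of 58, and 0 genes passed 2-fold in opposite directions. Across these 2334 genes the log2 ratios of the 2 libraries had a Pearson r of 0.668 and a Spearman correlation of 0.525, a description across genes, which are not independent replicates. Without the Malat1-poor cells all 34 and all 17 were called again. Other alternatives kept fewer of them. With cells thinned to 3000 UMIs 22 of the 34 and 15 of the 17 were called again. With the mean of per-cell CPM these were 27 and 15, in male cells 27 and 7, and with the top 20% 22 and 13. Against the remaining 90% of lineage cells they were 13 and 9.

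The gene with the highest ratio in both was Actg2, the second smooth muscle actin (GRCm38 chr6:83512905-83536265, minus strand). It was at 133 CPM in contractile cells and 2.22 CPM in the lower 50% at day 3, a ratio of 60.1 (50.4 to 72.2), and at 216 and 7.52 CPM without injury, a ratio of 28.7 (24.7 to 33.4). At 3000 UMIs per cell, 23.9% of contractile cells and 0.558% of the lower 50% had an Actg2 UMI at day 3, and 26% and 1.62% without injury. In C1q-rich cells of the same libraries, which should lack the gene, the shares were 0.334% and 0.652%, with medians of 5571 and 11206 UMIs per cell before thinning. The actin genes have closely similar coding sequences, and an exchange of reads between Actg2, Acta2 and the skeletal muscle actin Acta1 was not tested. Acta1 was at 26.5 and 0.650 CPM at day 3 and at 20.2 and 2.04 CPM without injury, while 8 of 13 listed skeletal muscle genes, Myod1, Pax7 and Ckm among them, had 0 UMIs in the contractile cells of both libraries.

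Secreted and matricellular genes came next. Ctgf, a matricellular protein and a known target of the mechanosensitive factors YAP and TAZ, was at 464 and 70.1 CPM at day 3, a ratio of 6.62 (6.36 to 6.88), and at 67.4 and 8.39 CPM without injury, a ratio of 8.04 (6.83 to 9.49). Thbs1, thrombospondin, which can release TGF-beta from its latent form, was at 1465 and 299 CPM at day 3 and at 673 and 189 CPM without injury. At 3000 UMIs, Ctgf was seen in 46.4% of contractile cells and 13.2% of the lower 50% at day 3, and in 14.3% and 1.80% without injury, against 2.60% and 1.16% of C1q-rich cells. So the gene separated the groups in both libraries, at a higher level at day 3.

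The other genes among the 12 highest act mostly in the cytoskeleton. Csrp1, a LIM protein of actin filaments, had ratios of 4.30 (4.09 to 4.52) at day 3 and 5.84 (5.59 to 6.11) without injury, and Nexn, which binds actin filaments, 3.01 and 7.89. Hspb1, a small heat shock protein that also binds actin, was at 440 and 97.1 CPM at day 3 and at 348 and 68.9 CPM without injury. Cdc42ep3, an effector of the small GTPase Cdc42, had ratios of 3.31 and 7.01, Akap12, a scaffold for protein kinase A, 4.65 and 4.996, and Cavin2, a coat protein of caveolae, 4.08 and 3.38. Lurap1l had ratios of 5.67 and 5.39 and Ddah1, which breaks down methylated arginine, 2.91 and 3.48. In male cells alone Cdc42ep3 was not 2-fold higher at day 3, with a log2 ratio of 0.22, against 1.73 in all cells.

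**Figure D3:**
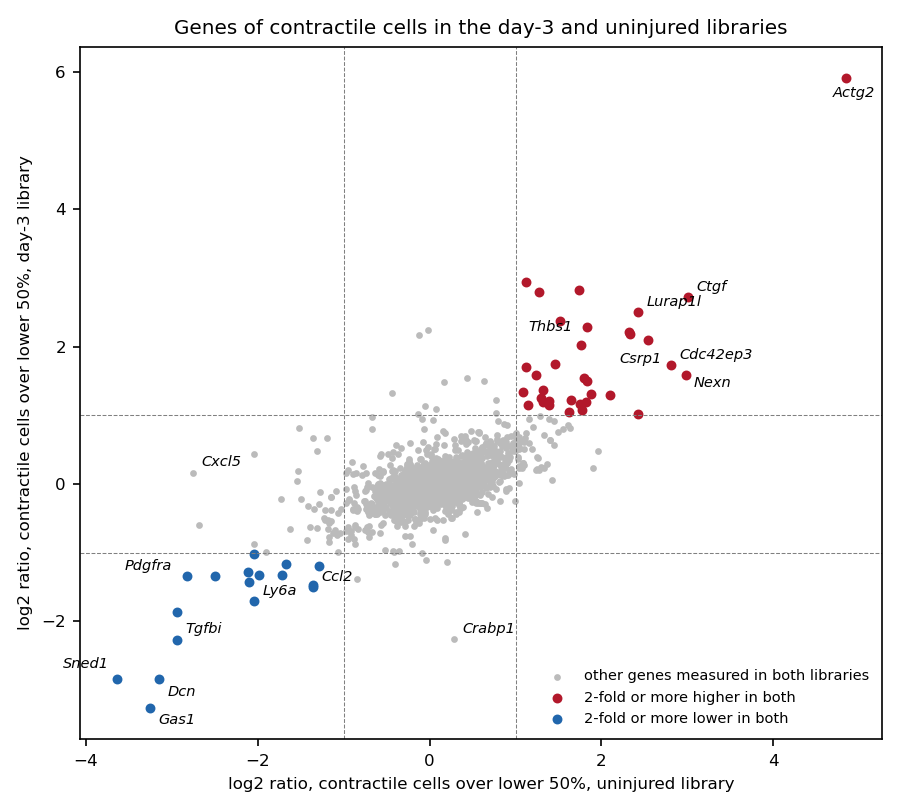
Log2 ratio of contractile cells over the lower 50% for 2334 genes, uninjured library on the x axis and day-3 library on the y axis, with dashed lines at 2-fold. The 34 genes higher in both (red) and the 17 lower in both (blue) lie in opposite corners, with Actg2 far from the rest and Crabp1 and Cxcl5 off the diagonal.

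RefSeq windows of the genes higher in both libraries were read for the CArG box because 5 of them hold one. Of 34 genes, 22 had a window, and 5 of these (22.7%) held a CArG box within 250 bases before to 50 bases after the start, against 41 of 1876 tested genes with a window (2.19%) and 488 of 27025 genes in all (1.81%). None of the 9 windows of genes lower in both held one. With near matches the shares were 31.8%, 11.1% and 11.3%. The box reads the same on both strands, and a match is a description of these letters, not a site. The 5 genes are Lurap1l, Cnn2, a calponin, Vcl, which encodes the adhesion protein vinculin, Fermt2, an activator of integrins, and Filip1l, a filamin-binding protein. The box lies 178, 56, 227, 204 and 62 bases before their starts, in the order given. Srf itself, shown for comparison, has 2 boxes 82 and 62 bases before the start. Each line gives 50 bases of GRCm38.p6 on the gene's strand with the box in capitals.
Lurap1l, chr4:80910488-80910537, plus strand: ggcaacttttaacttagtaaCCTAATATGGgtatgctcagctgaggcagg
Cnn2, chr10:79988524-79988573, plus strand: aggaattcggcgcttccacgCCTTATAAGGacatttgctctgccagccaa
Vcl, chr14:20929151-20929200, plus strand: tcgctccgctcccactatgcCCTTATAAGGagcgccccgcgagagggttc
Fermt2, chr14:45530240-45530289, minus strand: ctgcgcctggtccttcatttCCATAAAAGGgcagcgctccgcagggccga
Filip1l, chr16:57549160-57549209, plus strand: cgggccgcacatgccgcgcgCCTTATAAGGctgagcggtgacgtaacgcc
Srf, chr17:46556215-46556264, minus strand: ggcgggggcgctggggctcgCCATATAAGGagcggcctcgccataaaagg

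By lists of genes, most smooth muscle contractile genes were higher in both libraries, while markers of mature smooth muscle were scarce. A list gene was measured at 10 CPM or more in either group and counted as changed at 1.5-fold. Over all genes, 330 of 8004 (4.12%) were higher and 564 (7.05%) lower at day 3, with a median log2 ratio of -0.08, and 683 of 7518 (9.08%) were higher and 977 (13.0%) lower without injury, with a median of -0.02. Of the other smooth muscle contractile genes, 12 of 16 were higher and 0 lower at day 3 (median log2 ratio 1.15), and 13 of 15 higher and 0 lower without injury (1.34). Lmod1, which nucleates actin filaments in smooth muscle, was at 22.7 and 0.150 CPM at day 3, with 9 UMIs in the whole lower 50%, and at 72.7 and 2.83 CPM without injury. Fhl1, a LIM protein of muscle, was at 43.0 and 1.00 CPM at day 3 and at 89.5 and 5.25 CPM without injury, and Tpm1, a tropomyosin, at 2807 and 1329 CPM and at 2478 and 722 CPM. Mylk, the kinase of the myosin light chain, was at 13.0 and 2.25 CPM at day 3 and at 29.1 and 11.5 CPM without injury.

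Myh11, the smooth muscle myosin that marks mature smooth muscle, was at 3.03 and 0.0667 CPM at day 3, from 40 and 4 UMIs, and at 1.22 and 0.151 CPM without injury, from 8 and 4 UMIs. Des, desmin, was at 0.910 and 0.0500 CPM at day 3 and 0.609 and 0.151 CPM without injury, and Myocd, the cofactor of SRF in smooth muscle, at 0.758 and 0.20 CPM and at 0.457 and 0.113 CPM. Srf itself was at 45.0 and 27.8 CPM at day 3, a ratio of 1.62 (1.47 to 1.78), and at 17.8 and 9.82 CPM without injury, a ratio of 1.81 (1.45 to 2.26). In male cells at day 3 Srf had a ratio of 1.25 and did not reach 1.5-fold. Its cofactor gene Mkl2 did not reach 1.5-fold, with ratios of 0.815 and 0.729, and Fhl2, a LIM protein that binds SRF, was higher in both, with 1.63 and 2.52, but had 1.36 in male cells at day 3.

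Of the markers of pericytes and vascular smooth muscle, most were below 10 CPM. The 19 listed mural genes found in the files summed to 119 and 92.9 CPM at day 3 and to 77.6 and 247 CPM without injury, and Kcnj8, Higd1b and Vtn had 0 UMIs in contractile cells of both libraries. At day 3 the sum rested mainly on Pdgfrb, a receptor of pericytes and of many fibroblasts, at 55.96 and 46.2 CPM, and Cspg4, a surface proteoglycan, at 23.6 and 28.7 CPM. Without injury Pdgfrb was at 40.5 and 55.7 CPM and Ndufa4l2, a mitochondrial protein of pericytes, at 15.5 and 153 CPM. Rgs5, a marker of pericytes, was at 2.65 and 5.22 CPM at day 3, and without injury 0 UMIs were found in contractile cells against 0.529 CPM in the lower 50%. In each library 3 mural genes reached 10 CPM, of which 1 was higher and 0 lower at day 3 and 0 higher and 1 lower without injury. The higher one was Trpc6, a cation channel, at 12.7 and 0.717 CPM at day 3 and at 0.304 and 0 CPM without injury. Of the endothelial markers, Cdh5 was at 16.6 and 1.15 CPM at day 3 and 0 and 0.0755 CPM without injury, while Pecam1 and Cldn5 had 0 UMIs in contractile cells at day 3.

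Adhesion genes were more often higher than lower. Of 27 focal adhesion and integrin genes measured, 13 were higher and 1 lower at day 3 (median log2 ratio 0.56), and 15 higher and 2 lower without injury (0.70). Fermt2 was at 306 and 124 CPM at day 3 and at 288 and 78.4 CPM without injury, Vcl at 272 and 122 CPM and at 207 and 78.9 CPM. Actn1, an actin crosslinker, was at 553 and 287 CPM at day 3 and at 444 and 169 CPM without injury. Pxn, paxillin, ran the other way with ratios of 0.517 (0.460 to 0.580) and 0.631 (0.485 to 0.810), but with 0.734 in male cells at day 3.

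Of 14 YAP and TAZ targets and regulators, 9 were higher and 1 lower at day 3 (0.83) and 8 higher and 0 lower without injury (0.77). Ankrd1, a nuclear and sarcomeric protein and a usual readout of YAP, was at 96.6 and 14.5 CPM at day 3, a ratio of 6.68 (6.12 to 7.29), and at 30.1 and 2.42 CPM without injury, a ratio of 12.5 (9.36 to 16.8). Cyr61, a matricellular protein, had ratios of 3.01 and 2.35, and Crim1, which binds growth factors, 3.52 and 2.41. The transcription cofactor Wwtr1, which encodes TAZ, was lower at day 3, at 79.9 and 144 CPM, and was at 41.9 and 48.2 CPM without injury. In male cells at day 3 the ratio of Wwtr1 was 0.682.

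**Figure D4:**
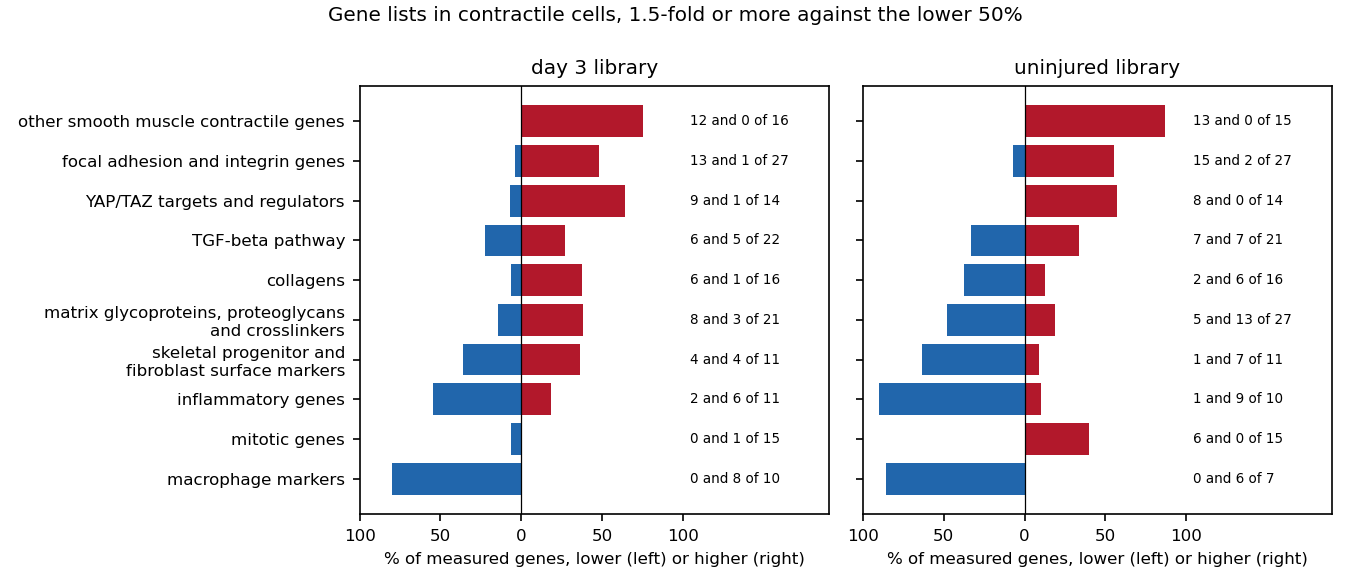
Share of the measured genes of 10 lists that were at least 1.5-fold higher (red, right) or lower (blue, left) in contractile cells than in the lower 50%, day-3 library left and uninjured library right, with the numbers higher and lower beside each bar. Smooth muscle, adhesion and YAP and TAZ lists lean to the right in both libraries, and the inflammatory and macrophage lists to the left.

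Growth factor and matrix genes had mixed directions. In the TGF-beta list, 6 of 22 genes were higher and 5 lower at day 3 and 7 of 21 higher and 7 lower without injury. Tgfb2, a TGF-beta ligand, was at 20.0 and 5.25 CPM at day 3 and at 51.3 and 17.5 CPM without injury, and Inhba, a subunit of activin, at 536 and 265 CPM and at 297 and 55.1 CPM. Tgfbi, a secreted protein named for its induction by TGF-beta, was lower in contractile cells, at 17.9 and 86.3 CPM at day 3 and at 8.52 and 65.3 CPM without injury, and so was the co-receptor Tgfbr3, with ratios of 0.643 and 0.222, though it had 0.906 in male cells at day 3.

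Of 16 collagen genes, 6 were higher and 1 lower at day 3 (0.53), and 2 higher and 6 lower without injury (-0.08). Col1a1, the main chain of bone and scar collagen, was at 424 and 194 CPM at day 3 and at 1550 and 1603 CPM without injury. As a mean of per-cell CPM, which weights cells equally, Col1a1 was at 565 and 430 CPM at day 3, a ratio of 1.31 that does not reach 1.5-fold. The basement membrane chains Col4a1 and Col4a2, whose genes lie head to head on chromosome 8, had the highest ratios of the list at day 3. Col4a1 was at 202 and 18.6 CPM at day 3, a ratio of 10.9 (10.1 to 11.7), and at 13.1 and 7.55 CPM without injury, a ratio of 1.73 (1.33 to 2.24). Col4a2 was at 120 and 12.8 CPM at day 3 and at 13.8 and 9.59 CPM without injury. Col3a1 had ratios of 0.856 at day 3 and 0.355 without injury. Among 21 and 27 measured matrix glycoproteins, proteoglycans and crosslinkers, 8 were higher and 3 lower at day 3 and 5 higher and 13 lower without injury (0.22 and -0.57). Tnc, tenascin, a matrix protein of healing tissue, was at 824 and 245 CPM at day 3 and at 86.9 and 31.5 CPM without injury, and Loxl2, which crosslinks collagen, at 73.5 and 14.2 CPM and at 59.8 and 20.8 CPM. Postn, periostin, was at 7.28 and 2.97 CPM at day 3, or 67.2 and 59.1 CPM as a mean of per-cell CPM, and at 49.2 and 41.4 CPM without injury. The proteoglycan genes Dcn and Lum were the lowest of the list: Dcn was at 29.6 and 213 CPM at day 3 and at 20.5 and 182 CPM without injury, and Lum at 1.67 and 20.5 CPM and at 5.02 and 57.5 CPM.

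Among the genes lower in both libraries were several of fibroblasts and skeletal progenitors. Gas1, a membrane protein that binds Hedgehog ligands, stood lowest of the 17 genes by the weaker of its 2 ratios, at 7.89 and 75.5 CPM at day 3, a ratio of 0.104 (0.0851 to 0.127), and was at 34.1 and 326 CPM without injury, 0.104 (0.0911 to 0.119). Ly6a, which encodes the stem cell antigen Sca-1, was at 86.8 and 283 CPM at day 3 and at 206 and 851 CPM without injury. At 3000 UMIs, 11.7% of contractile cells and 40.5% of the lower 50% had a Ly6a UMI at day 3, and 34.1% and 75.2% without injury. Of C1q-rich cells of the same libraries 28.1% and 19.9% had one, so the share in contractile cells at day 3 was below that in C1q-rich cells. Whether the Ly6a UMIs of C1q-rich cells were their own or free RNA was not tested. Cd34 was at 14.6 and 110 CPM at day 3 and at 14 and 42.5 CPM without injury, and Pdgfra, a receptor of fibroblasts and skeletal progenitors, at 29.3 and 74.4 CPM and at 12.6 and 89.3 CPM. In male cells at day 3 Pdgfra had a ratio of 0.698 and did not reach 2-fold. In the list of skeletal progenitor and fibroblast surface markers, 4 of 11 were higher and 4 lower at day 3, and 1 was higher and 7 lower without injury. Members of that list thus ran both ways at day 3. Without the Malat1-poor cells, Thy1 had ratios of 2.15 at day 3 and 0.973 without injury, and Nes 1.58 and 5.81. At day 3 Thy1 had a ratio of 1.19 in female cells, and Nes 0.848 in male cells. Prrx1, the gene whose promoter drives Cre, was nearly level, at 527 and 553 CPM at day 3 and at 329 and 379 CPM without injury. EGFP, part of the rule, was at 1975 and 1666 CPM at day 3 and at 3337 and 2088 CPM without injury. Sned1, a matrix protein, had ratios of 0.140 and 0.0802, and Nrn1, a membrane-anchored protein first known from neurons, 0.275 and 0.130.

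Sox9, the master regulator of cartilage, was at 67.6 and 170 CPM at day 3 and at 23.7 and 94.4 CPM without injury. Spp1, which encodes the bone matrix protein osteopontin and is also made by macrophages, was at 7809.6 and 20358 CPM at day 3 and at 1179 and 2110.6 CPM without injury. Scx, a regulator of tendon cells, was at 3.34 and 9.72 CPM at day 3 and at 56.5 and 24.0 CPM without injury. It does not stand for the tendon list, of which 0 genes were measured at day 3. Without injury 2 of 4 measured tendon genes were higher and 2 lower, with a median log2 ratio of -0.80. The osteoblast factors Runx2 and Sp7 had ratios of 0.690 and 0.402 at day 3 and 0.898 and 1.26 without injury. Of the osteogenic list, 0 of 3 measured genes were higher and 2 lower at day 3, and 1 of 8 higher and 3 lower without injury. Of the chondrogenic list, 0 of 3 were higher and 2 lower at day 3, and 1 of 2 higher and 1 lower without injury.

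Inflammatory genes were mostly lower: 6 of 11 were lower and 2 higher at day 3 (median log2 ratio -0.64), and 9 of 10 lower and 1 higher without injury (-1.38). Il1rl1, the receptor of interleukin 33, was at 145 and 389 CPM at day 3 and at 46.7 and 201 CPM without injury, and Il33 itself at 21.4 and 165 CPM and at 1.22 and 29.5 CPM. The monocyte chemokines Ccl2 and Ccl7 were at 269 and 760 CPM and at 171 and 474 CPM at day 3, and at 81.0 and 207 CPM and 96.9 and 248 CPM without injury. At day 3 the calls of Ccl2, Ccl7, Il33 and Il1rl1 were lost or turned in male cells. Ccl7 was at 332 and 355 CPM in male and 143 and 515 CPM in female cells, and Il1rl1 had a ratio of 0.546 in male cells. Ccl2 was at 218 and 859 CPM in female cells but at 552 and 494 CPM in the 52 contractile and 257 lower 50% cells with a male gene and no Xist, and Il33 at 2.91 and 212 CPM in female and at 79.7 and 17.6 CPM in male cells. In the uninjured male cells Ccl2 was at 80.2 and 212 CPM and Il33 at 1.51 and 27.4 CPM. The exception to the direction in both libraries was Ptgs2, the enzyme that starts prostaglandin synthesis. It was at 257 and 103 CPM at day 3 and at 18.0 and 6.08 CPM without injury. With cells thinned to an equal depth its ratio was 1.74 at day 3 but 1.33 without injury, which does not reach 1.5-fold. As a mean of per-cell CPM the ratios were 1.75 and 3.08.

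Macrophage and osteoclast genes were also lower. The 12 macrophage markers summed to 297 CPM in contractile cells and 574 CPM in the lower 50% at day 3, and to 350 and 592 CPM without injury, with no defining marker at 0. Of these, 8 of 10 measured at day 3 and 6 of 7 without injury were lower, among them Cd68 with ratios of 0.463 and 0.369. Of the osteoclast markers 3 of 3 were lower at day 3 and 2 of 2 without injury, with Calcr at 0 in contractile cells, and their sums were 86.3 and 190 CPM at day 3 and 44.9 and 116 CPM without injury. At day 3 the highest doublet scores made up 10.2% of the lower 50% and 2.97% of contractile cells. Without them the day-3 log2 ratio of Cd68 was -0.20, against -1.11 in all cells. That of Ctss was -0.54 against -1.263, and that of the osteoclast gene Acp5 -0.88 against -1.725, so none of these 3 calls stayed at 2-fold. The part of macrophage and osteoclast RNA in the lower inflammatory genes was not tested.

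The difference was graded along the score rather than set off at the limit. Lineage cells were put into 10 equal groups by score, and in groups 1, 5, 9 and 10 Ctgf was at 48.5, 103, 269 and 465 CPM at day 3, and at 2.74, 13.4, 51.4 and 66.7 CPM without injury. Gas1 was at 108, 40.2, 14.998 and 7.91 CPM in them at day 3 and at 479, 223, 64.2 and 34.3 CPM without injury. Ly6a was at 301, 215, 101 and 87.1 CPM in the same groups at day 3 and at 914, 702, 311 and 208 CPM without injury. Prrx1 stayed between 513 and 586 CPM at day 3 and between 305 and 426 CPM without injury.

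**Figure D5:**
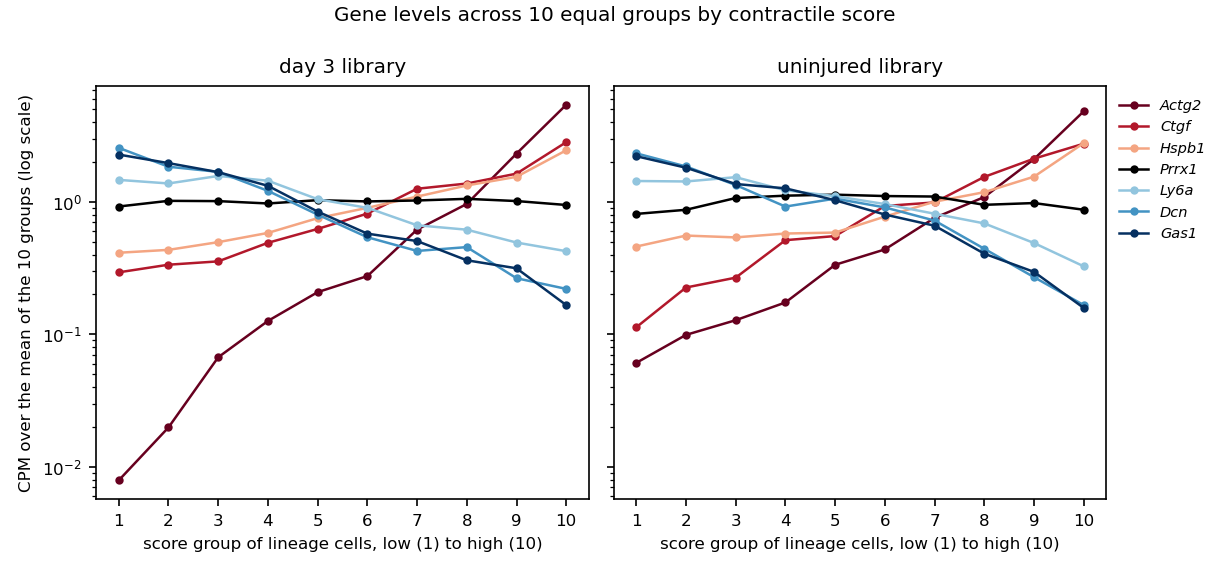
CPM of 7 genes in 10 equal groups of lineage cells ordered by the contractile score from low to high, each divided by its mean over the groups, on a log axis, day-3 library left and uninjured library right. Actg2, Ctgf and Hspb1 climb across the groups and Ly6a, Dcn and Gas1 descend, with Prrx1 nearly flat.

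The contractile cells did not form 1 cluster. Lineage cells of each library were clustered without the 5 genes of the score, which gave 11 clusters at day 3 and 8 without injury. At day 3 the contractile cells lay mostly in clusters 5, 3 and 7, with 25.9%, 22.4% and 22.4% of them, and 6.49% lay in each of clusters 0 and 1. Cluster 5 was led by Ccl11, Ppbp and Mfap5, cluster 3 by Sfrp2, Ctla2a and Aldh1a2, and cluster 0 by histone and mitotic genes. Cluster 1, led by Acp5, Mmp9 and Atp6v0d2, held 16.3% of the lower 50%. Without injury clusters 0 and 4 held 29.1% each, led by mitotic genes and by the bone genes Ibsp, Bglap2 and Mmp13, cluster 1 held 18.4% and cluster 7 held 16.6%. Cluster 7 of each library was the Malat1-poor one, in which 211 of 218 cells at day 3 and 75 of 77 without injury were under the limit, and 38.1% and 48.1% of its cells were contractile cells. In the 9 clusters with at least 20 contractile and 20 lower 50% cells, all 12 genes named as higher were above the lower 50% of the same cluster, except for 1 gene in cluster 7 at day 3, Ctgf, at 6.13 and 8.40 CPM from 5 and 4 UMIs. The median ratio of the 12 genes ranged from 2.16 in that cluster to 6.77 in cluster 0 at day 3, and from 4.03 to 5.52 without injury. These genes were chosen from the same cells, so this describes where the difference lay. Of the 12 genes named as lower, 8 were below the lower 50% in cluster 4 of the uninjured library and 11 or 12 in each of the other 8 clusters.

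The contractile cells of the day-3 library were also set against those of the uninjured library. Of 3131 genes, 543 (17.3%) passed 2-fold upwards at day 3 and 185 (5.91%) downwards. In the lower 50% the counts were 640 (19.8%) and 253 (7.81%) of 3239 genes, and injury, animals and library cannot be told apart. Acta2 was lower at day 3 in contractile cells (ratio 0.440, 0.434 to 0.446) and in the lower 50% (0.306, 0.298 to 0.315). Cnn1 was lower at day 3 in both, with 0.171 and 0.0528, whereas Tagln had a ratio of 1.26 in contractile cells and 0.644 in the lower 50%. Ctgf was 6.88-fold higher at day 3 in contractile cells (6.25 to 7.59) and 8.36-fold higher in the lower 50% (7.30 to 9.61).

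The genes whose contractile ratio differed most between the libraries were chosen for that difference. The largest was that of Ndufa4l2, at 3.03 and 2.42 CPM at day 3 and at 15.5 and 153 CPM without injury, with 0.483 and 7.92 CPM in male cells at day 3. Besides Col4a1 and Col4a2, Plac8, a small cysteine-rich protein, was at 217 and 38.3 CPM at day 3 and at 15.7 and 15.6 CPM without injury. The chemokine Cxcl5 was level at day 3, at 109 and 96.8 CPM, and at 55.1 and 371 CPM without injury. Foxs1, a forkhead factor, was at 65.1 and 34.2 CPM at day 3 and at 44.7 and 6.57 CPM without injury, and Mcpt8, a serine protease of basophils, at 104 and 76.1 CPM and at 21.8 and 1.96 CPM. In male cells at day 3 Mcpt8 was at 12.1 and 92.9 CPM. Dlk1, a membrane protein of immature mesenchymal cells, was at 1.59 and 29.1 CPM at day 3, with a ratio of 0.635 in male cells, and at 51.7 and 94.99 CPM without injury. Crabp1, which binds retinoic acid, was at 146 and 700 CPM at day 3 and at 70.9 and 58.1 CPM without injury, and in male cells at day 3 at 309 and 266 CPM. Without the Malat1-poor cells it was at 48.96 and 57.6 CPM in the uninjured library, a ratio of 0.850 against 1.22 with them.

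At an equal depth, the share of cells with mitotic UMIs was lower in contractile cells at day 3 and higher in them without injury. At 3000 UMIs per cell, 26.1% of contractile cells (exact 95% interval 21.6 to 31.0) and 34.2% of the lower 50% (32.0 to 36.4) had at least 3 UMIs over 15 mitotic genes at day 3. Without injury it was 37.7% (31.3 to 44.4) and 22.1% (19.7 to 24.7). Unthinned shares were 73.2% and 71.9% at day 3 and 82.1% and 56.9% without injury, at the depths given above. None of the 15 genes was 1.5-fold higher and 1 was lower at day 3, where 4.12% and 7.05% of all genes were. By count the list thus had no clear direction at day 3. Without injury 6 were higher and 0 lower, where 9.08% and 13.0% of all genes were. The median log2 ratio of the 15 genes was -0.30 at day 3 and 0.54 without injury. Mki67, a marker of dividing cells, was at 47.8 and 76.8 CPM at day 3 and at 32.3 and 34.03 CPM without injury, and Ube2c, which acts in mitotic exit, at 130 and 149 CPM and at 164 and 99.1 CPM.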

How the data were processed

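Periosteal cells were profiled in 2 droplet (10x) libraries. The deposited matrices hold raw UMI counts, whole numbers for each gene in each barcode, and their header records software version 3.1.0. The submitters' processing notes list Cell Ranger, Seurat 4.0.1 and build mm10. No source used here says how the cell barcodes were called.

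Barcodes with under 500 genes, under 1000 UMIs or over 10% mitochondrial UMIs were removed. The members and gene lists were chosen with earlier results of these data known. The contractile cells were the top 10% and the group beside them the lowest 50% of lineage cells. Genes at least 2-fold apart at 50 CPM or more were counted, and list genes at 1.5-fold and 10 CPM. By rule the text draws on the 5 genes of the score, the 12 highest and 12 lowest in both libraries, the 6 with the largest and 6 with the smallest difference between libraries, the 2 highest and 2 lowest of each of 28 lists at 10 CPM, and 13 lineage genes. Among the 36 genes chosen from all genes, score genes, EGFP, unnamed models and mitochondrial, ribosomal protein and globin genes were passed over. Further list genes, and those at the CArG box, were picked after their values were seen. Of 414 list genes, 407 were found in the files.

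Shares of cells were thinned to 3000 UMIs and have exact Clopper-Pearson intervals, and a ratio has an exact conditional binomial one. Scrublet in scanpy 1.11.5 marked 0 cells automatically in either library, too few to have worked, so all cells were kept and the highest scores at 0.8% per 1000 barcodes (1673 at day 3, 157 uninjured) were removed only as an alternative. Lineage cells were clustered per library from 2000 variable genes, 30 components and 15 neighbours with leidenalg 0.10.2 at resolution 0.5. TMM factors alone came from edgeR 4.0.16 (R 4.3.3). Sums and intervals used scipy 1.17.1 with pandas 2.3.3 and numpy 2.4.6 under Python 3.11.15, and plots matplotlib 3.10.9. Alternatives changed 1 choice at a time, except that the one with no CPM minimum also added 1 UMI to every sum. Male cells had a Y-linked UMI and no Xist, and female cells the reverse. Gene positions came from GENCODE for GRCm38 (mm10), where 30934 of 31055 identifiers were found. Ratio, interval and thinning steps were tested on simulated data. Some genes and lists named by the rule are not reported here.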

Additional observations from a re-analysis of the deposited data

Results flagged for a closer look

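Of 256 reported or listed genes at 10 CPM or more in both libraries, 7 were at least 1.5-fold higher in contractile cells of one library and at least 1.5-fold lower in those of the other. The difference between libraries was not tested, as there is 1 library each. Adam12, a metalloprotease, had ratios of 4.61 (3.64 to 5.85) at day 3 and 0.413 (0.298 to 0.560) without injury. The chemokine Cxcl12 had 2.32 (1.96 to 2.73) and 0.290 (0.262 to 0.320), with 1.58 in male cells and 1.11 with cells thinned to 3000 UMIs at day 3. Col5a3 had 1.77 and 0.410, the microfibril gene Fbn1 1.76 and 0.350, the fibulin Fbln2 1.74 and 0.630, and Cd248, a surface protein of stromal cells, 1.58 and 0.389. Alcam, a cell adhesion molecule, had 0.484 and 1.71. Over all 6986 genes measured in both libraries, 15 were higher at day 3 and lower without injury, and 6 the reverse.

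Cells outside the lineage rule also reached the score limit of their library, 32 of 10766 at day 3 and 8 of 2206 without injury. At day 3, 24 of the 32 were at or above the C1q limit and 31 had at least 1 EGFP UMI, with a median of 24095 UMIs. Without injury 6 of the 8 were at or above the C1q limit and all 8 had EGFP, with a median of 6481 UMIs. Rgs5 was found in 0 of them, and Myh11 in 3 at day 3 and 0 without injury.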

How the results depend on the processing

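Alternatives moved some counts by over 1.5 times. A lower CPM minimum lets in more genes, 8004 at day 3 and 7518 without injury at 10 CPM, against 3045 and 2718 at 50 CPM. For the other alternatives the cause was not tested. With the remaining 90% in place of the lower 50%, 31 genes were higher and 25 lower at day 3, 32 and 54 without injury, and 13 and 9 in both. At a 10 CPM minimum there were 136 and 204, 194 and 392, 71 and 90, and, for day 3 over uninjured, 1586 and 458, while with no minimum and 1 UMI added there were 2954 and 1176, 2743 and 1682, 851 and 442, and 2989 and 2410. The top 20% gave 22 genes higher in both, thinning gave 90 and the mean of per-cell CPM 92 genes lower at day 3, and male cells alone 8 genes lower in both, 7 of them among the 17. Cycling shares at 1000 UMIs were 10.5% and 14.7% at day 3 and 17.04% and 8.36% without injury, and unthinned 73.2%, 71.9%, 82.1% and 56.9%. Under the other alternatives those counts stayed within 1.5 times.

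In male cells at day 3 the log2 ratios of Ccl2, Crabp1 and Il33 turned to 0.16, 0.22 and 2.18. That of Mmp9 turned to 0.19 with an EGFP minimum of 10 per 10000 and 0.086 between the quartiles of UMIs. Over all alternatives, 118 of 4646 gene values changed sign, and these 5 were of genes called at 2-fold. Female and Malat1-poor alternatives were chosen after seeing the data. No paired analysis was possible because each group is 1 library. Few UMIs behind genes under 10 CPM and the 52 male contractile cells at day 3 also limit the values.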
